A study of Morus alba var. atropurpurea with 12 samples.

Results

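In roots of mulberry plants kept in cadmium chloride for 20 days, 225 of 17782 tested transcripts stood apart at the middle dose. The 2 directions are described separately, as 169 transcripts that peaked at 10 mM (0.95% of those tested) and 56 that dipped there (0.315%), together 1.27%. Levels are FPKM, a fragment count divided by transcript length and by the number of mapped fragments in the library, and a transcript that a library did not list was set to 0. A transcript was tested where at least 3 libraries reached 1 FPKM. It was taken as peaking where all 3 libraries of 10 mM lay above all 9 others and the 10 mM mean of log2(FPKM + 1) exceeded each other group mean by at least 0.5, and as dipping where the same held in the opposite direction. The smallest of those 3 differences is called the margin. The rule used every library, so the members were chosen by the same values that set 10 mM against the other groups, and these are given as a description of what was chosen, without a test.

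The plants were seedlings of the cultivar Yuesang10 of Morus alba var. atropurpurea, raised in soil for 3 months, cut back to 10 cm of shoot and 2 cm of root, and held in Hoagland nutrient solution for 3 days before treatment. The control group received the solution without cadmium, and the other groups received it with 5, 10 or 20 mM of cadmium chloride, with 3 libraries in each group. The solution was changed every 5 days. All 12 libraries share cultivar, cutting back and hydroponic culture, and the labels name root as the tissue although the text on the series speaks of fruit. Whether libraries of 1 group derive from different plants is not in the labels, and the p-values reflect only library-to-library spread, which may be technical.

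Cadmium has no known use in plants and enters root cells through carriers that serve iron, zinc, manganese and calcium. Inside the cell it binds to thiols such as glutathione and the phytochelatins made from it, and these complexes are moved into the vacuole. Gene responses to a toxic metal can be graded with dose, or can be strongest at an intermediate dose and weaker above it. The deposited tables identify transcripts only by XM accession and do not pair these with gene names, so no member could be assigned to a pathway, no protein or promoter sequence is shown, and the tissue label could not be checked against marker genes. In whole roots, fewer cells of a type and less RNA per cell cannot be told apart.

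Each library listed 19381 to 20071 transcripts. The number of reads is unknown, but the spacing of low values gives a worth of 1 read (lower in deeper libraries) of 0.943 to 1.06 of its mean. The 10 mM group averaged 0.969 ± 0.0332, the 5 mM group 0.991 ± 0.0284, the 20 mM group 0.984 ± 0.0177 and the control 1.06 ± 0.0114 (SD, n = 3). Replicate 1 of 10 mM stood apart from its group on the first principal component of the tested transcripts (20.3% of the variance), at -21.1 against 33.2 and 23.9, among the control and 5 mM libraries, which lay between -51.2 and -13.7.

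The 169 peaking transcripts were roughly doubled at 10 mM relative to control as a set, and raised somewhat less relative to 5 mM and 20 mM. Their median level was 6.70, 6.04 and 6.88 FPKM in control replicates 1, 2 and 3, then 6.76, 6.50 and 7.21 FPKM at 5 mM. At 10 mM it was 14.7, 13.4 and 13.7 FPKM, and at 20 mM 6.35, 8.70 and 8.53 FPKM. Replicates 2 and 3 of 20 mM thus had the highest medians outside 10 mM, while replicate 1 of 20 mM lay within the control range. Together the peaking transcripts held 1.29% to 1.44% of the FPKM sum of a 10 mM library and 0.635% to 0.867% of that of any other library. The 10 mM mean exceeded the control mean by a median of 0.93 log2 units (quartiles 0.75 and 1.14), the 5 mM mean by 0.80 and the 20 mM mean by 0.71.

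XM_010110463.1 had the largest margin of the peaking transcripts, 1.58 log2 units. It stood at 12.03, 8.17 and 3.26 FPKM in the control libraries, 4.87, 14.01 and 13.62 at 5 mM, 41.56, 75.32 and 18.37 at 10 mM, and 12.25, 17.12 and 8.84 at 20 mM. The lowest 10 mM library, replicate 3, was barely above the highest 20 mM library, replicate 2, so the large margin came from replicates 1 and 2 of 10 mM. Its mean was 45.1 ± 28.6 FPKM at 10 mM, compared with 7.82 ± 4.40 in control, 10.8 ± 5.17 at 5 mM and 12.7 ± 4.16 at 20 mM (SD, n = 3).

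XM_010110464.1, whose accession number follows directly on that of the first, had the second largest margin, 1.46 log2 units. It stood at 1.79, 4.15 and 0.97 FPKM in control, 2.26, 0.82 and 2.73 at 5 mM, 18.31, 6.52 and 4.41 at 10 mM, and 0.69, 3.89 and 3.52 at 20 mM. Here replicate 1 of 10 mM was by far the highest library, and replicate 3 exceeded control replicate 2 only narrowly. After median scaling or quantile normalization it no longer met the rule. The tables do not say where either transcript lies in the genome or whether they share sequence, so reads shared between near-identical copies could not be examined.

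Most other peaks were small and many were narrowly separated. Margins ran from 0.50 to 1.58 with a median of 0.66, and 10 of the 169 reached 1. The 2 peaking transcripts just inside the limit had margins of 0.5001 and 0.5061, and the 2 just outside had 0.4997 and 0.4996. The gap between the lowest 10 mM library and the highest other library had a median of 0.14 log2 units and was under 0.1 in 62 of the 169. Without the demand for a margin, 347 transcripts had all 3 libraries of 10 mM on top. Conversely, 436 reached the margin in their means while at least 1 library overlapped.

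The peaking transcripts were spread over all levels of abundance. Their mean over the 12 libraries had a median of 8.99 FPKM, against 11.3 FPKM for all tested transcripts, and 80 of 169 (47.3%) reached 10 FPKM, as did 52.6% of all tested. The most abundant had 1024.54, 1410.02 and 1090.32 FPKM in control, 1144.14, 836.66 and 1296.07 at 5 mM, 1470.73, 2576.72 and 2282.3 at 10 mM, and 1306.36, 1416.3 and 1168.43 at 20 mM. In that transcript replicate 1 of 10 mM lay close to the highest libraries of the control and 20 mM groups, and replicates 2 and 3 lay well above them. Of the 169, 9 (5.33%) were not listed in at least 1 library, against 8.46% of all tested transcripts. By the rule a peak was always listed at 10 mM, so only the 9 other libraries could lack it, which lowers its share. Of the 56 dips, 7 (12.5%) were not listed in at least 1 library, which by the rule could only be a 10 mM library.

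**Figure D1:**
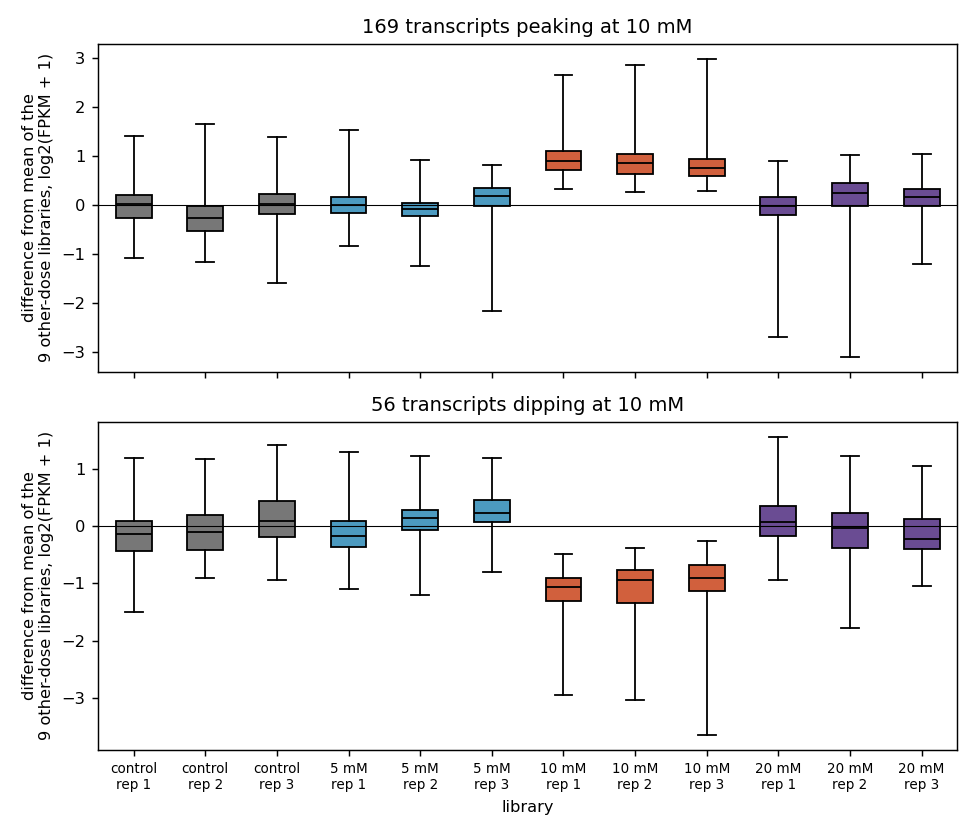
Difference of each library (horizontal axis) from the member's own mean over the 9 control, 5 mM and 20 mM libraries, in log2(FPKM + 1), for the 169 peaking transcripts (top) and the 56 dipping ones (bottom). Boxes span the quartiles with the median as a line, and whiskers the full range over members; the rule itself places the 3 libraries of 10 mM apart, and the spread among the other 9 libraries is what a reader should see.

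The 56 dipping transcripts were roughly halved at 10 mM. Their median level was 16.1, 17.2 and 19.7 FPKM in control, 18.4, 22.8 and 22.2 at 5 mM, 10.1, 8.68 and 9.16 at 10 mM, and 21.0, 19.2 and 18.5 at 20 mM. The control, 5 mM and 20 mM libraries overlapped in this median, and all of them lay above the 10 mM values. The 10 mM mean lay below the control mean by a median difference of -0.94 log2 units (quartiles -1.16 and -0.68), below the 5 mM mean by -0.997 and below the 20 mM mean by -0.97. Their share of the FPKM sum was 0.337% to 0.465% in the 10 mM libraries and 0.611% to 0.868% in the others.

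XM_010112306.1 had the largest margin of all members, 2.08 log2 units. It stood at 52.39, 51.97 and 11.39 FPKM in control, 56.6, 18.37 and 26.09 at 5 mM, 4.0, 1.86 and 0.88 at 10 mM, and 11.24, 7.84 and 17.81 at 20 mM. Its 10 mM libraries were the lowest by a wide gap, and its 20 mM libraries overlapped the control group only through control replicate 3. The 20 mM mean was -1.37 ± 0.59 log2 units from the control mean (SE), which did not pass the limma test (adjusted p = 0.285).

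XM_010100397.1 followed with a margin of 1.42 log2 units. It stood at 12.26, 15.19 and 38.34 FPKM in control, 23.54, 10.29 and 22.21 at 5 mM, 0.91, 3.01 and 2.97 at 10 mM, and 10.67, 3.3 and 10.67 at 20 mM. Replicate 2 of 20 mM was nearly as low as the highest 10 mM libraries. The 20 mM libraries all lay below the control libraries, with a difference of -1.28 ± 0.52 log2 units (SE) that did not pass the limma test (adjusted p = 0.255).

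With the values as deposited, dips had a larger median margin and a higher median level than peaks, given here without a test. Against control the median differences were alike in size, 0.93 log2 units for peaks and -0.94 for dips. The rule bears on margin and level alike. It admits no margin under 0.5, and how many peaks and dips reach that limit depends on scaling. The mean level includes the 10 mM libraries, and a peak can pass the filter through these alone. Without any 1 library of 10 mM, 165 of the 169 peaks and all 56 dips still passed the filter. The margins of the dips ran from 0.50 to 2.08 with a median of 0.77, and 11 of 56 reached 1. The 2 dipping transcripts just inside the limit had margins of 0.501 and 0.5037, and the 2 just outside had 0.4918 and 0.4906. The gap between the highest 10 mM library and the lowest other library had a median of 0.15 log2 units and was under 0.1 in 22 of the 56. The median level over the 12 libraries was 19.4 FPKM, and 38 of 56 (67.9%) reached a mean of 10 FPKM. The most abundant dipping transcript stood at 3091.41, 2885.59 and 3249.01 FPKM in control, 3091.21, 3400.77 and 3165.1 at 5 mM, 1718.31, 2152.64 and 2630.25 at 10 mM, and 4784.39, 3230.1 and 3715.01 at 20 mM. In 1 dipping transcript none of the 3 libraries of 10 mM listed a value.

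**Figure D2:**
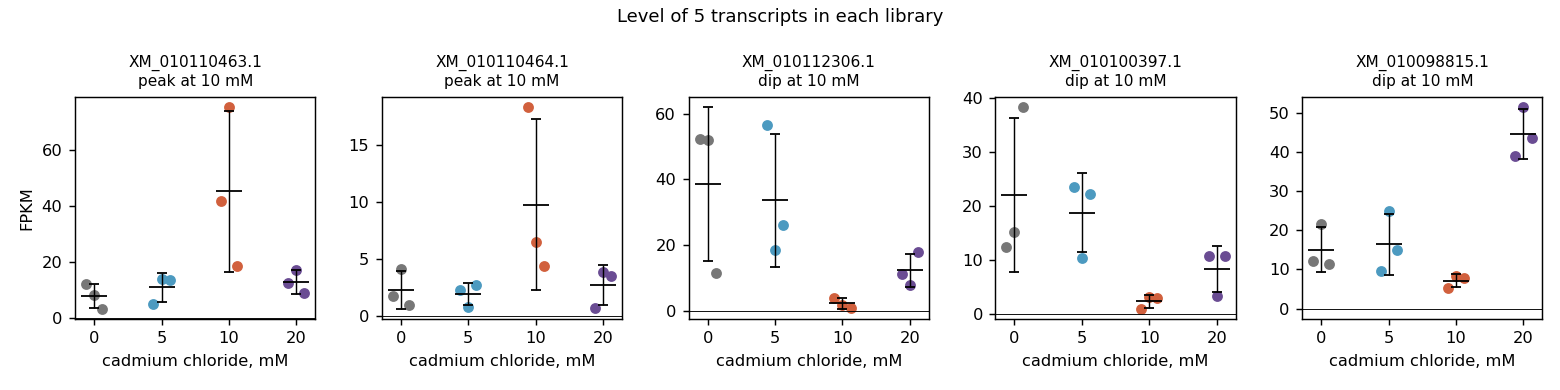
FPKM (vertical axis, linear, a separate scale in each panel) of 5 transcripts by dose of cadmium chloride in mM, with 0 for the control. Points are single libraries, and the black bar with its whiskers is the mean ± SD of 3 libraries; XM_010098815.1, in the rightmost panel, is lowest at 10 mM and highest at 20 mM.

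Which of the 3 libraries of 10 mM was most extreme varied between members. Among the peaking transcripts the highest was replicate 1 in 81, replicate 2 in 58 and replicate 3 in 30. Among the dipping ones the lowest was replicate 1 in 27, replicate 2 in 21 and replicate 3 in 7, with 1 tie. Replicate 1, which on the first principal component lay with the control and 5 mM libraries, was therefore often the most extreme library of these sets. Its part in them was examined by leaving it out, which demands the separation of only 2 libraries. This gave 392 peaking and 178 dipping transcripts, among them 135 of the 169 and 48 of the 56. Without replicate 2 the members kept were 142 peaks and 49 dips, and without replicate 3 they were 151 and 54. The spread within 10 mM, a median SD of 0.22 log2 units for peaks and 0.26 for dips, was below the 0.32 of all tested transcripts, and a demand for separated libraries favours a small spread there.

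The next question was what the members did at the doses around 10 mM, in differences that leave out the 10 mM means. The rule bears on these as well. The spread estimated by the fit includes the 10 mM libraries, whose small spread the rule favours, and fits of only the 2 groups compared called 0 members in each of the 3 comparisons that follow. In addition, a group mean could not come within 0.5 log2 units of the 10 mM mean, so peaks that stayed high at 20 mM were left out by construction. Within that limit, 126 of 169 peaking transcripts (74.6%) and 35 of 56 dipping ones (62.5%) had both their 5 mM and 20 mM means within 0.5 log2 units of control, as did 61.4% of all tested transcripts. In 159 peaks and in all 56 dips the 20 mM mean was nearer to control than to 10 mM, and at 5 mM this held for 166 peaks and 55 dips. Unlike the shares before them, these counts use the 10 mM mean, which the rule keeps at least 0.5 from every other group mean. The rule thus favours high counts here, and they do not show a return to control.

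At 20 mM against control, 0 of the 169 peaking transcripts passed the limma test, and 1 of the 56 dipping ones did, while 1.27% of all tested transcripts were called, 0.579% of all tested as higher. At an unadjusted p under 0.05, 17 peaking transcripts were higher and 5 lower at 20 mM, and 4 dipping ones were higher and 3 lower, against 9.19% higher and 6.96% lower among all tested transcripts. The median difference of the peaking transcripts was 0.24 log2 units above control, against 0.06 for all tested, and 131 of 169 (77.5%) were above 0, against 55.9%. The median of the peaks was 0.10 without control replicate 2 and 0.15 after median scaling. By their means, 27 peaks were at least 0.5 above control at 20 mM and 7 at least 0.5 below, together 20.1%. For dips the median was 0.01 (-0.08 after median scaling). Of the dips, 8 were at least 0.5 above control and 9 at least 0.5 below, together 30.4%. Among all tested transcripts, 28.8% lay at least 0.5 from control at 20 mM in either direction.

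The 1 called member, named after its values were seen, was XM_010098815.1, a dipping transcript with the opposite response at the next dose. It stood at 12.16, 21.57 and 11.39 FPKM in control, 9.54, 24.94 and 14.86 at 5 mM, 5.36, 8.34 and 7.85 at 10 mM, and 38.88, 51.5 and 43.54 at 20 mM. In this transcript all 20 mM libraries lay above all others and all 10 mM libraries below all others. The 20 mM mean was 1.55 ± 0.33 log2 units above control (SE, adjusted p = 0.0459, limma). The call was close to the threshold and was lost without any 1 of control replicates 1 and 3, 5 mM replicate 3, 10 mM replicates 2 and 3 or any 20 mM replicate (adjusted p from 0.0537 to 0.160). It was also lost with a pseudocount of 0.1 (0.0504), no filter (0.0622), median scaling (0.0717) and quantile normalization (0.0571). Further settings that lost it were no variance trend and robust moderation (0.0605) and a fit of the 2 groups alone (0.0624). The call held with the replicate block (0.0160), array weights (0.0319) and a mean of at least 5 FPKM (0.0419). It also held without any 1 of control replicate 2, 5 mM replicates 1 and 2 or 10 mM replicate 1 (0.035 to 0.041). Over all alternatives the adjusted p (limma) ran from 0.0160 to 0.160.

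At 5 mM against control, limma called 0 members in either set, against 0.0112% of all tested transcripts. At an unadjusted p under 0.05 (limma), 5 of the 169 peaking transcripts were higher and 3 lower, together 4.73%. Of the 56 dipping ones 1 was higher and 0 lower, together 1.79%. Among all tested transcripts 4.95% were higher and 4.18% lower. The median difference was 0.10 log2 units for both peaks and dips, against 0.07 for all tested transcripts, and 0.02 for peaks and 0.015 for dips after median scaling.

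At 20 mM against 5 mM, limma again called 0 members, where 0.309% of all tested transcripts were called. At an unadjusted p under 0.05 (limma) there were 6 higher and 3 lower among the 169 peaks, together 5.33%. Among the 56 dips 2 were higher and 5 lower, together 12.5%. Of all tested transcripts 4.62% were higher and 5.05% lower. The median difference was 0.07 log2 units for peaks and -0.12 for dips, against 0.0026 for all tested. A p that misses the threshold does not show that levels at 0, 5 and 20 mM were equal.

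**Figure D3:**
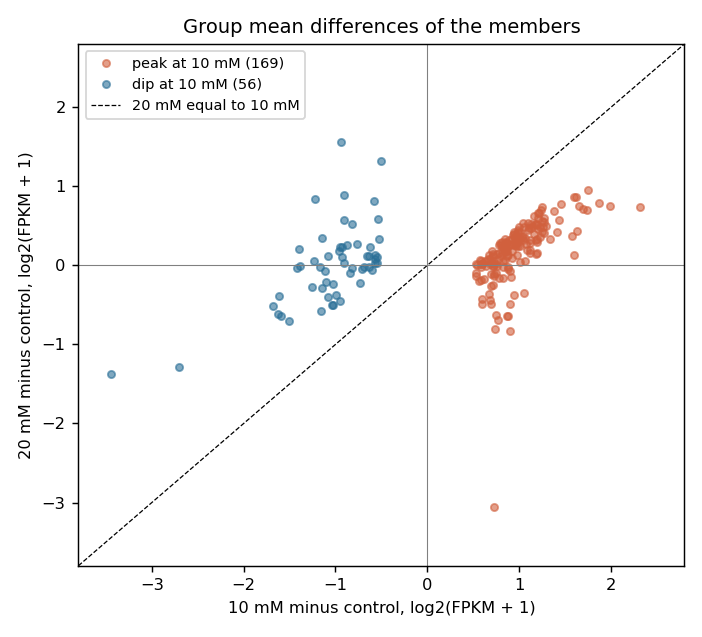
Difference from the control mean at 10 mM (horizontal axis) and at 20 mM (vertical axis), both in log2(FPKM + 1), for the 169 peaking and 56 dipping transcripts. Both axes share the control libraries and the rule keeps points at least 0.5 from the dashed line of equal change, so no relation is read from the cloud; the lone peaking point near -3.06 is the member that fell farthest below control in its 20 mM mean.

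Members differed in shape across the doses. The peaking transcript that lay farthest below control at 20 mM stood at 25.39, 30.35 and 24.78 FPKM in control, 27.65, 17.63 and 1.23 at 5 mM, 35.35, 33.24 and 77.31 at 10 mM, and 0.54, 0.16 and 19.52 at 20 mM. Its low values were confined to 5 mM replicate 3 and 20 mM replicates 1 and 2, so its groups were uneven, and the 20 mM difference of -3.06 log2 units did not pass the limma test (adjusted p = 0.189). The group mean nearest to 10 mM was that of 20 mM in 99 peaking transcripts, of 5 mM in 44 and of control in 26. Among dips it was 20 mM in 25, control in 20 and 5 mM in 11. No such ranking, of group means or of single libraries, was made for all tested transcripts, so it is not shown to be particular to the members. Of all tested transcripts, 22.0% differed by at least 0.5 between 10 and 20 mM, 24.1% between 10 and 5 mM and 28.1% between 10 mM and control. The ranks of the members use the 10 mM mean, by which they were chosen, and rest on the values as deposited. There the median of all tested transcripts already lay 0.07 log2 units above control at 5 mM and 0.06 at 20 mM. Among single libraries, 20 mM replicate 2 came nearest to the 10 mM libraries in 48 peaks, 20 mM replicate 3 in 31 and 5 mM replicate 3 in 29.

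The same rule was applied with each other group in the place of 10 mM, to see how many transcripts set each group apart. The control was above all other libraries in 84 transcripts and below in 180, 5 mM above in 32 and below in 58, and 20 mM above in 152 and below in 157. The 225 members of 10 mM were thus more than the 90 of 5 mM and fewer than the 264 of control and the 309 of 20 mM. A margin of 1 left 21 at 10 mM, 10 peaks and 11 dips, and 124 at 20 mM, 62 in each direction. These counts were not tested against each other.

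The excess of peaks over dips at 10 mM depended on scaling. Peaks were 75.1% of members with the values as deposited, 55.7% after median scaling (122 peaks and 97 dips) and 58.5% after quantile normalization (127 and 90). Of the 169 peaks, 106 were found under both scalings, and of the 56 dips 53 were. XM_010110463.1, XM_010112306.1, XM_010100397.1 and XM_010098815.1 met the rule under both, and XM_010110464.1 met it under neither. The median of all tested transcripts was 0.09 log2 units above control at 10 mM as deposited and -0.02 after median scaling, a shift of over 0.1. The control split changed more, from 31.8% to 60.7% above all other libraries after median scaling.

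**Figure D4:**
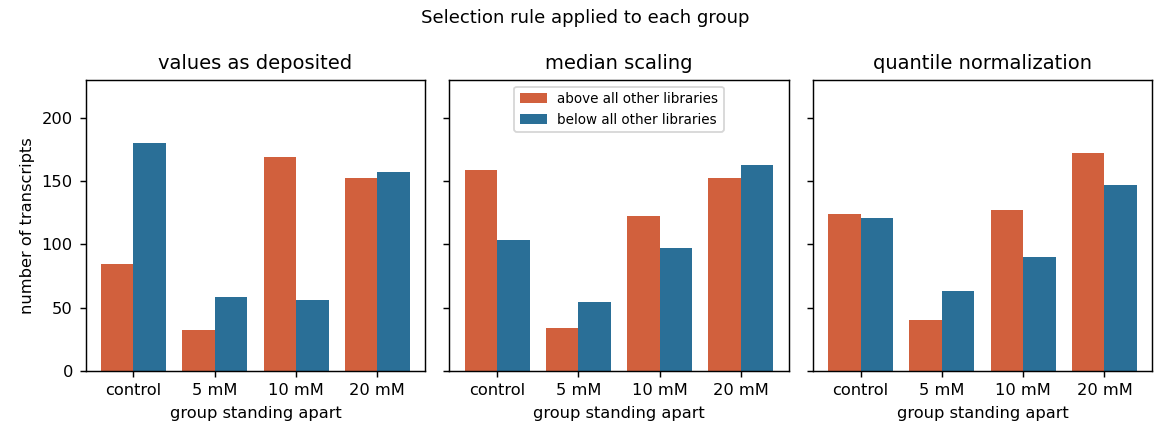
Number of transcripts (vertical axis, from 0) for which all 3 libraries of a group (horizontal axis) lay above or below all 9 others with a margin of at least 0.5, with the values as deposited, after median scaling and after quantile normalization. At 10 mM the bars are 169 and 56 as deposited and 122 and 97 after median scaling.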

How the data were processed

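The authors deposited 1 table of FPKM per library, per the file headers. How reads were aligned and counted, and on which genome build, is not given in the sources used here. Tables list values above 0 to 2 decimals, from 0.01. No 2 libraries held identical values. Of 22727 transcripts listed in any library, 4945 were below the filter of 1 FPKM in 3 libraries and left out. Members were found by the stated rule on log2(FPKM + 1), a scale that understates changes of low transcripts. A limma 3.58.1 model (R 4.3.3) with 1 mean per group, a variance trend and no block was fitted to the 12 libraries together. P-values are two-sided, with Benjamini-Hochberg adjustment over all tested transcripts and a threshold of 0.05. The fit was tested on simulated data.

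The members and comparisons were chosen with earlier results of these data known. Gene lists and marker lists written as product descriptions could not be applied without names. Named are the 2 members per direction with the largest margin, as planned for accessions without names. For the worth of 1 read, the lowest value of a sparse transcript (listed in 4 to 9 libraries, at least 0.3 FPKM) was taken as 1 read; in 1090 such transcripts, 74.6% of the 3542 values above 1.5 times that worth lay within 0.1 of a whole multiple. Absolute depth is unknown, so no counting interval is given.

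The alternatives were a pseudocount of 0.1, other filters, median scaling, quantile normalization, a margin of 1, array weights, robust moderation without the variance trend, models restricted to the 2 groups in question, the replicate block, and omission of each library in turn.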

Additional observations from a re-analysis of the deposited data

How the results depend on the processing

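Counts of members moved most with the number of 10 mM libraries and with the limits of the rule. With 1 library left out, the peaking count ran from 155 to 421 and the dipping count from 53 to 178. The highest counts came without a 10 mM library, at 392, 365 and 421 peaks and 178, 169 and 130 dips without replicates 1, 2 and 3, where fewer libraries had to be separated. A mean of at least 5 FPKM left 109 peaks, a margin of 1 left 10 peaks and 11 dips, and dips numbered 97 after median scaling and 90 after quantile normalization. The other settings of the rule stayed within 1.5 times, including a pseudocount of 0.1 (223 peaks and 66 dips).

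The count of 1 member called at 20 mM against control was 0 with a pseudocount of 0.1, no filter, median scaling, quantile normalization or only the 2 groups compared, 2 with array weights, and 0 to 1 with 1 library left out. The 1 called was not always XM_010098815.1: without 20 mM replicate 3 it was a peaking transcript that was lower, and under robust moderation without the variance trend a peaking transcript that was higher. At 20 mM against 5 mM the count of 0 became 3 with array weights, and at 5 mM against control it was 0 under all alternatives. With the replicate block, 2 members were called at 20 mM against control and 1 at 20 mM against 5 mM. Between the groups of these comparisons the correlations of same-numbered libraries ran from -0.187 to 0.202 and in no pair of groups did all 3 exceed 0.1. Between control and 10 mM, which are not compared by a test here, all 3 did (0.268, 0.170 and 0.176).

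With 1 library left out, the median difference of the peaks ran from 0.10 to 0.29 at 20 mM, the lowest without control replicate 2, and from 0.01 to 0.15 at 5 mM. For dips it ran from -0.07 to 0.12 and from 0.06 to 0.20. The cause of these changes was not tested. Read depth is unknown, which limits what can be said of members near 1 FPKM.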
